A study of Xenopus laevis with 6 samples.

Results

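Retinoid metabolism was examined in a brain block of juvenile *Xenopus laevis* through 8 genes. They carry or oxidise retinol, or make, bind, clear or sense retinoic acid. These were *adh4*, *aldh1a1*, *aldh1a2*, *rdh10*, *rbp4*, *crabp2*, *cyp26a1* and *rara*. The theme was chosen from the measured leptin-minus-saline difference of *adh4*, which was among the largest drops on the array, and the other 7 genes were added for their known part in the pathway. All 8 were measured, by 27 probe sets with a single gene symbol, among 32539 probe sets and 9273 gene names in all. No filter on low values was used, so all 27 entered the comparison.

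Saline frogs (frogs 1 to 3) received 0.6% saline into the brain ventricles. Leptin frogs (frogs 4 to 6) received recombinant frog leptin (rxLeptin) in the same way, at 20 ng per g of body weight. All were juveniles averaging 0.8 g, with no genetic modification named, and tissue was collected after 2 h. Each array held RNA of 1 frog from a block of preoptic area, hypothalamus and pituitary, so fewer cells of a type and less RNA per cell cannot be told apart in these signals.

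Retinol travels in blood bound to the carrier Rbp4. Inside cells it is oxidised to retinaldehyde by retinol dehydrogenases such as Rdh10 or by alcohol dehydrogenases, and then to retinoic acid by the Aldh1a enzymes. Retinoic acid is held by Crabp2, activates nuclear receptors such as Rara, and is removed by Cyp26a1, whose gene is itself switched on by retinoic acid. In mammals, the meninges and the tanycytes lining the hypothalamic ventricle are known sites of retinoid metabolism. *X. laevis* carries many genes in a pair of copies, marked .L and .S after the long and short chromosomes. Of 15 member copies in the RefSeq gene table, 12 were measured, and the .S copies of *aldh1a2*, *crabp2* and *rara* were not analysed here.

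Array medians lay between 7.36 and 7.46 on the log2 scale, and correlations between arrays between 0.983 and 0.995. Leptin frog 6 had the lowest median, 7.36. Its highest correlation with another array was 0.988, against 0.991 or more for each other array. The 3'/5' log2 signal difference of *gapdh*, a measure of RNA integrity, lay between 0.354 and 0.513 in saline frogs and between 0.400 and 0.474 with leptin, with a two-sided exact permutation p of 1 (the smallest possible is 0.1). The mean of 8 measured pituitary markers, of 15 listed, was 7.19 in saline frog 1 against 11.3 to 12.2 in the other 5 frogs, and the mean of 12 skeletal muscle markers, of 12 listed, was 8.61 in saline frog 3 against 6.18 to 6.72 in the others. These 2 saline arrays stood apart in these marker means, and values without them are given beside some of the results they move. Whether their tissue content differed was not tested. Every marker mean used the brightest probe set of each measured gene, as did the counts of marker genes lower, higher or without overlap. A probe set's brightness depends on its probes as well as on its transcript, so levels were compared between frogs within a probe set and never between genes.

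The *adh4.L* signal was lower in leptin frogs. Its log2 signal was 8.63, 7.79 and 9.23 in saline frogs 1, 2 and 3, and 6.98, 6.31 and 5.96 in leptin frogs 4, 5 and 6. All leptin frogs lay below all saline frogs, with a gap of 0.80 between the nearest frogs. The group means were 8.55 ± 0.73 (SD, n = 3) and 6.42 ± 0.52 (SD, n = 3), a 4.39-fold lower level in leptin frogs (log2 -2.13, SE 0.41). Because this difference chose the theme, it is a description and carries no test.

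Across the array, 0 of 32539 probe sets passed a limma adjusted p of 0.05 (0%). At an unadjusted p under 0.05, 871 probe sets were lower in leptin frogs (2.68%) and 662 were higher (2.03%). All 3 leptin frogs lay below all 3 saline frogs in 2207 probe sets (6.78%) and above them in 1676 (5.15%). Only 7 probe sets had a larger drop than *adh4.L*, and 2 of these 7 had groups that did not overlap. The 6 of them with a symbol were chosen after their values were seen. They were *eif2s1.S*, *gstp1.L*, *rbp4.L*, *MGC75582.S* and 2 probe sets of *ocm4.4.S*, a gene of the parvalbumin family of calcium-binding proteins. The remaining probe set, without a symbol, read 11.3, 8.55 and 12.3 in saline frogs and 8.15, 11.3 and 5.64 in leptin frogs. Its frogs were ordered nearly as in this *rbp4.L* probe set, and whether both detect the same transcript was not tested.

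**Figure D1:**
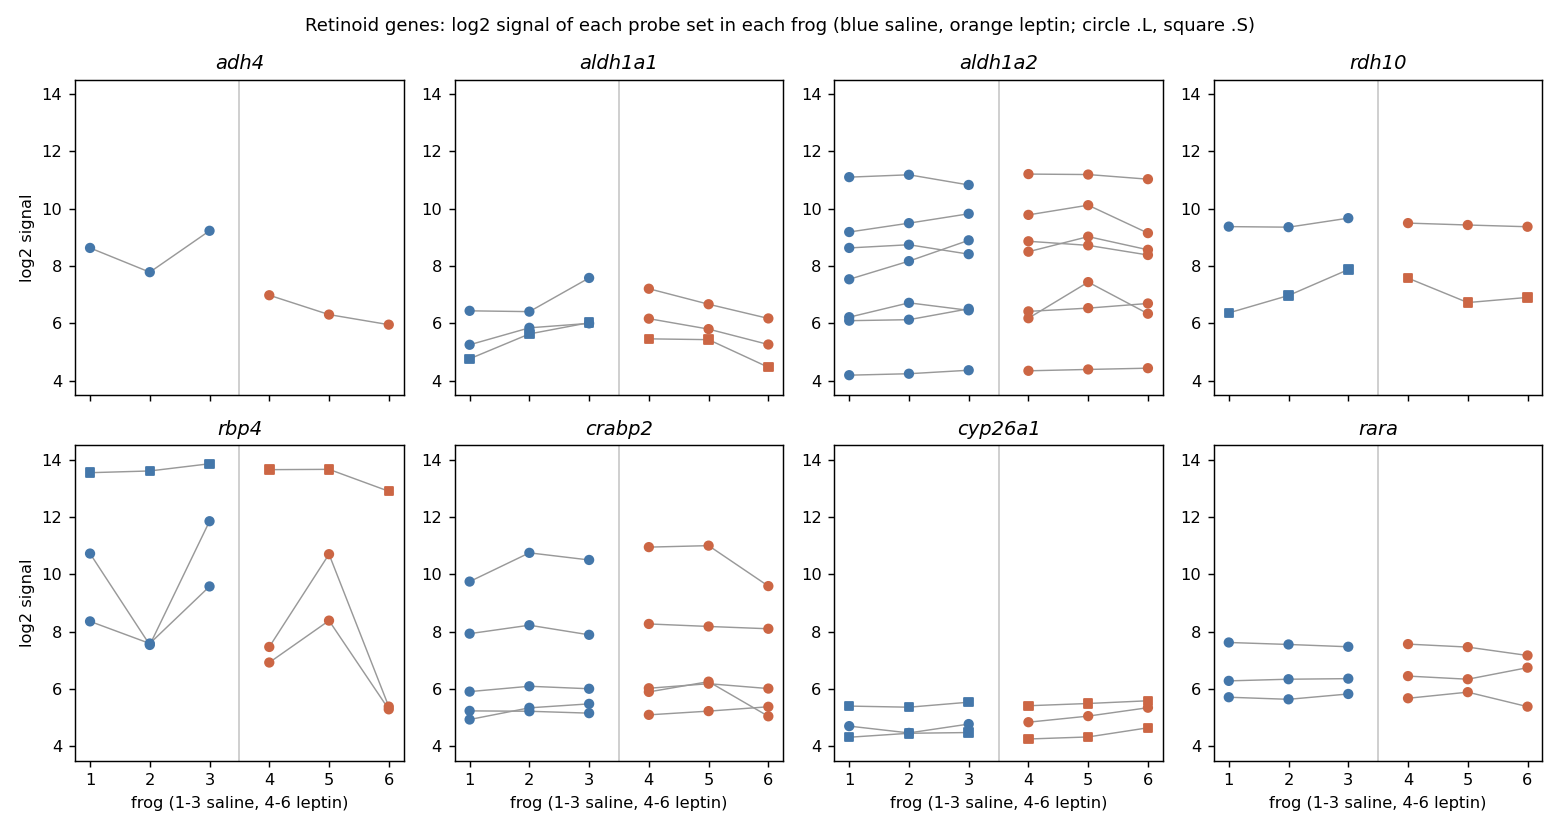
Log2 signal (vertical axis) in each of the 6 frogs (horizontal axis, frogs 1 to 3 saline in blue, 4 to 6 leptin in orange), 1 panel per gene. Each point is 1 array, circles are .L copies and squares .S copies, and grey lines join the values of 1 probe set within a group and stand for no order. *adh4.L* sits between 5.96 and 6.98 in leptin frogs and between 7.79 and 9.23 in saline frogs, while the leptin and saline frogs overlap in all other probe sets but 1, the *cyp26a1.L* probe set.

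The lower signal of *adh4* was not seen as a rule in the other 7 genes. Of their 26 probe sets, 10 had a lower mean in leptin frogs (38.5%) and 16 a higher one, with a median log2 difference of 0.06. Over all probe sets, 47.6% were lower and the median difference was 0.01. The groups did not overlap for 1 of 26 probe sets with leptin above and for 0 of 26 with leptin below, beside 5.15% and 6.78% of all probe sets. At an unadjusted limma p under 0.05, 0 of the 26 were lower and 1 was higher, beside 2.68% and 2.03% of all probe sets, so that the count is near the array-wide share. None of the 26 (0) passed the adjusted threshold, with limma adjusted p between 0.906 and 1.00.

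**Figure D2:**
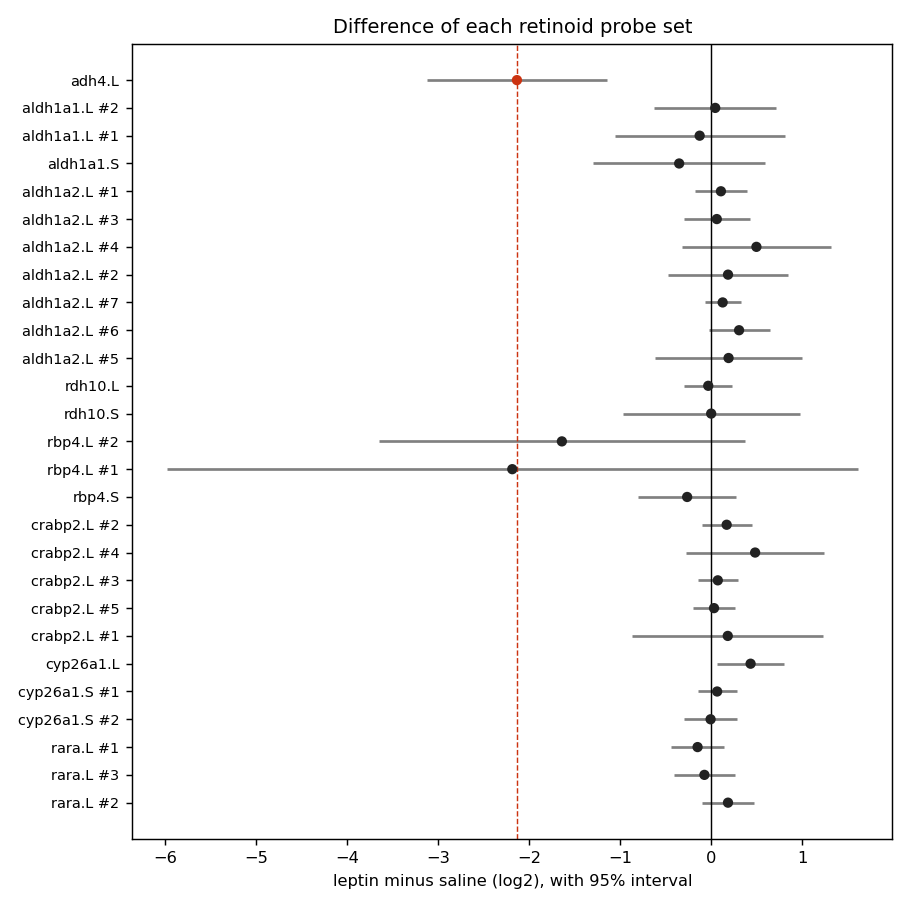
Leptin-minus-saline difference on the log2 scale (horizontal axis) for each of the 27 member probe sets (rows), with bars for the 95% interval from limma. The *adh4.L* bar is a description and no test, because that difference chose the theme. Probe sets of 1 copy are numbered from the brightest, the dashed line marks the *adh4.L* difference of -2.13, and outside *adh4* and *rbp4.L* every point lies between -0.35 and 0.50.

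Among retinoid carriers, *rbp4*, which encodes the plasma retinol-binding protein, had a lower mean in leptin frogs in all 3 probe sets, without passing. The brighter *rbp4.L* probe set read 10.7, 7.54 and 11.9 in saline frogs 1, 2 and 3, and 7.47, 10.7 and 5.39 in leptin frogs 4, 5 and 6. Saline frogs 1 and 3 and leptin frog 5 were high, saline frog 2 and leptin frog 4 were alike and lower, and leptin frog 6 was lowest. The groups thus overlapped, and the mean was lower in leptin frogs by a log2 value of -2.19 (SE 1.58), with a limma adjusted p of 0.906.

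The other *rbp4.L* probe set read 8.36, 7.59 and 9.58 in saline frogs and 6.93, 8.39 and 5.29 in leptin frogs (log2 -1.64, SE 0.84, limma adjusted p = 0.906). It ordered the frogs in nearly the same way, and the Pearson correlation between the pair over 6 arrays was 0.96 (Spearman 0.94). This describes 2 probe sets annotated with the same gene symbol on the same arrays. Single frogs moved both values in either direction. Leaving out leptin frog 6 gave log2 differences of -0.95 for the brighter and -0.85 for the dimmer probe set, and leaving out saline frog 3 gave -1.28 and -1.11. Dropping leptin frog 5 instead gave -3.61 and -2.40, while dropping saline frog 2 gave -3.44 and -2.10. Without both saline frogs 1 and 3, which leaves 1 control, the brighter one was 0.32 higher in leptin frogs and the dimmer one was still lower, at -0.72. The signal of the .S probe set varied far less. It read 13.5, 13.6 and 13.9 in saline frogs and 13.7, 13.7 and 12.9 in leptin frogs (log2 -0.27, SE 0.22), with leptin frog 6 lowest again. Without that frog its difference was -0.013. The range over the 6 frogs was 6.47 and 4.29 log2 units for the .L probe sets and 0.96 for the .S one. The .S probe set was among the brightest on the array, at percentile 99.4 of mean signal. Whether the transcripts of the copies differ in range was not tested.

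For the first oxidation step, *rdh10*, the retinol dehydrogenase required for embryonic retinoic acid synthesis in mouse, differed little between groups. The *rdh10.L* probe set read 9.38, 9.36 and 9.67 in saline frogs and 9.50, 9.43 and 9.37 in leptin frogs, all within 0.31 log2 units. Its difference was -0.03 (95% interval -0.30 to 0.23). The *rdh10.S* probe set spread more widely within each group, at 6.37, 6.97 and 7.88 in saline frogs and 7.58, 6.73 and 6.91 in leptin frogs. Saline frog 1 was its lowest and saline frog 3 its highest frog. Its mean difference was -0.0016, with an interval from -0.97 to 0.97 that leaves room for a change of nearly 1 log2 unit either way.

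The retinaldehyde dehydrogenases, which make retinoic acid, did not pass in either direction. All 7 *aldh1a2.L* probe sets had a slightly higher mean in leptin frogs, with log2 differences from 0.06 to 0.50, and the groups overlapped in each. The brightest read 11.1, 11.2 and 10.8 in saline frogs and 11.2, 11.2 and 11.0 in leptin frogs (log2 0.11, SE 0.12, limma adjusted p = 0.907). The largest difference, 0.50 (SE 0.34), belonged to the fourth brightest, at 7.54, 8.17 and 8.90 in saline frogs and 8.50, 9.03 and 8.57 in leptin frogs. There the lowest frog was saline frog 1, and the difference was 0.16 without it, 0.84 without saline frog 3 and 0.11 with the pituitary marker mean as a covariate. The 7 probe sets report on 1 gene copy and are no replicates of each other.

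The enzyme gene *aldh1a1* had 3 probe sets, 2 lower and 1 higher in leptin frogs, with overlapping groups in each. The brighter *aldh1a1.L* probe set read 6.44, 6.41 and 7.59 in saline frogs and 7.21, 6.67 and 6.17 in leptin frogs (log2 -0.13, SE 0.39). The dimmer one differed by 0.04 (SE 0.28). For *aldh1a1.S* the values were 4.77, 5.63 and 6.03 in saline frogs and 5.46, 5.43 and 4.47 in leptin frogs (log2 -0.35, SE 0.39, limma adjusted p = 0.907), with saline frog 1 and leptin frog 6 at the bottom. The *aldh1a1.S* difference was -0.71 without saline frog 1, -0.077 without saline frog 3 and -0.027 without leptin frog 6.

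The gene of the intracellular retinoic acid carrier, *crabp2.L*, had a higher mean in leptin frogs in all 5 probe sets, by 0.03 to 0.48 on the log2 scale, and none passed. The brightest probe set read 9.75, 10.8 and 10.5 in saline frogs and 11.0, 11.0 and 9.59 in leptin frogs, so that each group held 1 low frog. Its difference was 0.18 (SE 0.44, limma adjusted p = 0.947). The largest difference, 0.48 (SE 0.32), was in the fourth brightest, at 4.94, 5.35 and 5.49 in saline frogs and 5.90, 6.26 and 5.05 in leptin frogs.

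Clearance of retinoic acid is represented by *cyp26a1*, which is widely used as a readout of retinoic acid signalling. The *cyp26a1.L* probe set was the single one among the 26 whose groups did not overlap. It read 4.71, 4.47 and 4.78 in saline frogs and 4.85, 5.06 and 5.35 in leptin frogs, with a gap of 0.07 between the nearest frogs. Its log2 difference was 0.43 (SE 0.15, 95% interval 0.07 to 0.80), or 1.35-fold, with an unadjusted limma p of 0.0274 and an adjusted p of 0.906, so it did not pass. The 2 *cyp26a1.S* probe sets did not share this difference. One read 5.41, 5.37 and 5.54 in saline frogs and 5.42, 5.50 and 5.59 in leptin frogs (log2 0.06, SE 0.09), and the other differed by -0.01 (SE 0.12). All 3 lay among the dimmest 25% of probe sets by mean signal, at percentiles 10.6 to 24.4, and no measure of background was used. Leptin frog 6 was the highest frog in all 3, and without it the *cyp26a1.L* difference was 0.30. Leptin frog 6 was also highest in most of the equally dim probe sets of the pathway genes listed below. Among these were *adh1b.L* (5.05), *aldh1a3.L* (5.76), *hoxb4.S* (4.97) and *rbp2.L* (4.80), and the neighbouring gene *adh1-a* (4.06) was alike. It was lowest in fewer of them, namely *lrat.L* (3.67), *nrip1.S* (4.60), the dimmest *aldh7a1.L* (5.04) and the dimmest *rarg.S* (5.02). Whether this is a trait of that array was not tested.

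The receptor gene *rara.L*, which encodes retinoic acid receptor alpha, had 3 probe sets that went in different directions. The brightest read 7.63, 7.56 and 7.48 in saline frogs and 7.57, 7.47 and 7.17 in leptin frogs (log2 -0.15, SE 0.12, limma adjusted p = 0.906). The others differed by 0.18 (SE 0.12) and -0.08 (SE 0.14). In all 3, leptin frog 6 was the frog farthest from the rest, and the groups overlapped.

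The genes beside *adh4.L* on the chromosome were examined because the vertebrate alcohol dehydrogenase genes lie in a cluster. In the RefSeq assembly Xenopus_laevis_v10.1, used for gene order only, *adh4.L* on chromosome 1L lies between *adh1b.L* and *adh1-a*, with *adh5.L*, the gene of the glutathione-dependent formaldehyde dehydrogenase, close by. Of the 8 nearest protein-coding genes, 4 on each side, 5 were measured. Their log2 differences lay between -0.03 and 0.09, and the groups overlapped in all 5. The *adh5.L* probe set read 11.4, 11.5 and 11.7 in saline frogs and 11.3, 11.6 and 11.6 in leptin frogs. For *adh1b.L* the values ran from 4.43 to 5.05 and for *adh1-a* from 3.69 to 4.06, and both lay in the dimmest 25% of probe sets.

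Likeness to the *adh4.L* pattern over the 6 frogs was ranked among genes outside the member list. The ranking was by Pearson correlation among 266 single-symbol probe sets that varied at least 0.5 times as much (SD over frogs). The members were left out beforehand, and the highest r among the probe sets of the other members was 0.76, for the dimmer *rbp4.L* one. A gene that follows *adh4.L* over all 6 frogs must also be low in leptin frogs, so these correlations describe likeness and support no difference. The first 5 genes were *LOC733334* (r = 0.96), *bglap.S* (r = 0.95), *krt15.1.S* (r = 0.93), *LOC100126637* (r = 0.92) and *ocm4.4.S* (r = 0.91), with Spearman values of 0.94, 0.77, 1, 0.94 and 1.

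Among them, *bglap* encodes osteocalcin, a protein of bone matrix, and *krt15.1* a keratin, which is an epithelial filament protein. The *bglap.S* probe set read 8.11, 7.16 and 8.03 in saline frogs and 6.46, 6.37 and 6.49 in leptin frogs. The *krt15.1.S* values were 6.09, 5.62 and 7.19 in saline frogs and 5.49, 5.17 and 5.04 in leptin frogs. For *ocm4.4.S* they were 6.76, 5.18 and 9.76 in saline frogs and 4.65, 4.58 and 3.86 in leptin frogs. In each of the 5 genes saline frog 2 was the lowest saline frog, as for *adh4.L*. The ranking by correlation over the same 6 frogs favours such a shared order, which is therefore no separate result.

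**Figure D3:**
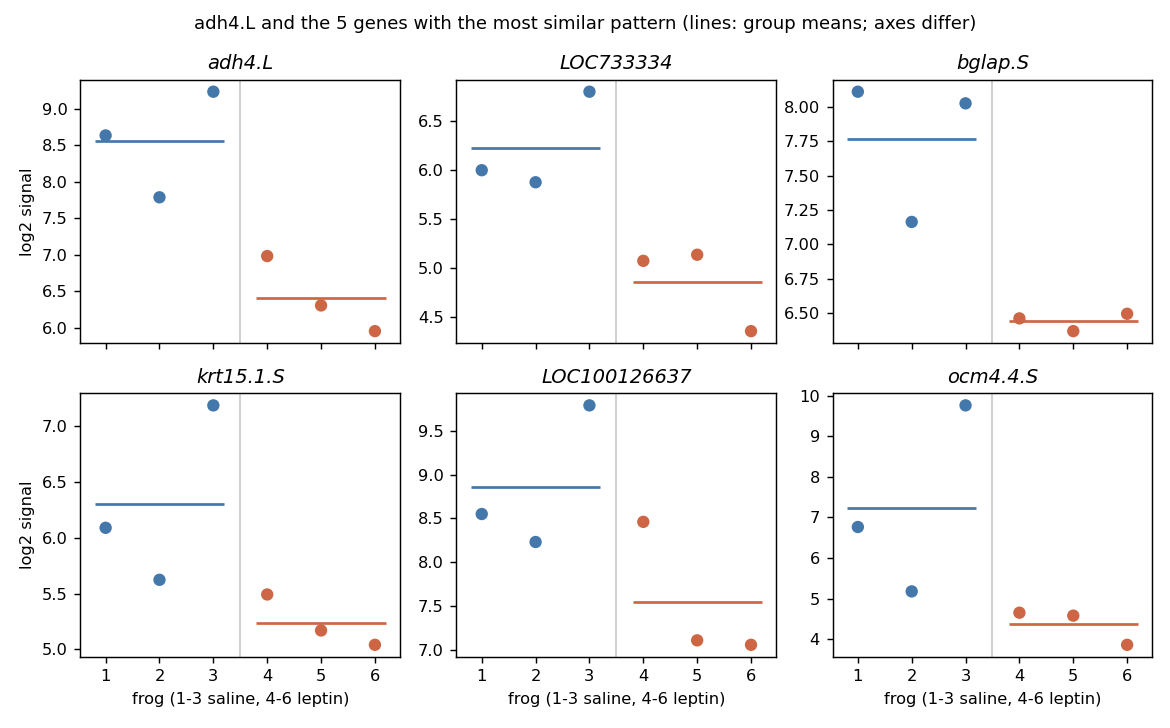
Log2 signal (vertical axes, which differ between panels) of *adh4.L* and of the 5 genes outside the members with the highest Pearson correlation with it among the probe sets ranked, in frogs 1 to 3 (saline, blue) and 4 to 6 (leptin, orange). Points are arrays and lines are group means, and in each panel saline frog 2 is the lowest saline frog.

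Markers of other tissues were set beside *adh4.L*. The mean of the 12 skeletal muscle markers lay between 6.25 and 8.61 in saline frogs and between 6.18 and 6.37 in leptin frogs, with 10 of 12 genes lower in leptin frogs, 2 of them without overlap, and 1 gene higher without overlap (exact permutation p of the mean = 0.3, two-sided, smallest possible 0.1). For this and the lists below, the shares over all probe sets were 47.6% lower, 6.78% wholly below and 5.15% wholly above saline frogs. Saline frog 3 was highest in the muscle mean as in *adh4.L*, but saline frog 2, at 6.25, lay below leptin frogs 4 and 6, at 6.30 and 6.37. The 2 brightest muscle markers were *atp2a1.S*, a calcium pump gene, and the creatine kinase gene *ckm.L*. The *atp2a1.S* probe set used in the mean read 10.2 to 10.4 in all frogs and was the 1 higher without overlap. Another *atp2a1.S* probe set, which was dimmer, read 8.92 in saline frog 3 and 5.39 to 6.35 in the others. The *ckm.L* values were 9.33 in saline frog 3 and 7.62 to 8.07 in the others, while a dimmer *ckm.L* probe set read 5.48 in saline frog 3 and 5.33 to 5.92 in the others. For skin epithelium and cartilage, 6 of 11 listed genes were measured. Their mean lay between 7.34 and 7.88 in saline frogs and between 7.40 and 7.78 in leptin frogs (exact permutation p = 1). When numbered tandem copies were also counted, a choice made after the data were seen, 9 genes gave 7.41 to 7.92 in saline frogs and 7.13 to 7.50 in leptin frogs. Of the 9, 6 were lower in leptin frogs, 2 of them without overlap, and 0 were higher without overlap (exact permutation p of the mean = 0.4). The 9 genes include *krt15.1.S*, already named for its likeness to *adh4.L*. The part of these tissues in the *adh4.L* values was not tested. With the muscle mean as a covariate the *adh4.L* difference was -1.66, without saline frog 3 it was -1.79, and without both saline frogs 1 and 3 it was -1.37, with saline frog 2 as the only control. Liver markers, of interest because *adh4* is a liver gene in mammals, had 7 of 10 genes measured and a mean of 6.20 to 6.26 in saline frogs and 6.30 to 6.48 in leptin frogs. The liver means differed by 0.14, with 5 genes higher and 2 lower in leptin frogs and overlapping groups in the brightest probe set of each of the 7 (two-sided exact permutation p of the mean = 0.1, the smallest possible). A dimmer *apoa1.L* probe set, not used in the mean, had all leptin frogs above all saline frogs. The part of liver transcripts in the *adh4.L* values was not tested.

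A second pattern joined several members across frogs of both groups. In 6 of the 26 other probe sets the 2 lowest frogs were saline frog 1 and leptin frog 6, which held for 6.78% of all probe sets. The 6 were the brightest and the fourth brightest of *crabp2.L*, the second brightest of *aldh1a2.L*, the dimmer *aldh1a1.L*, *aldh1a1.S* and *rbp4.S*. Markers of meninges and fibroblasts, which in mouse express *Aldh1a2* and *Crabp2*, had the same 2 lowest frogs in 8 of 11 measured genes (12 listed). Their mean was 8.62 in saline frog 1 and 8.74 in leptin frog 6, against 9.29 to 9.87 in the other 4 frogs. The brightest of these markers, *ptgds.S*, did not share the pattern, with 9.70 in saline frog 1 and 10.3 in leptin frog 4 against 13.6 or more elsewhere, whereas the next, the collagen gene *col1a1.S*, read 11.5 and 11.0 in saline frog 1 and leptin frog 6 and 11.5 to 13.0 elsewhere. The group means of the list differed by -0.10 (exact permutation p = 1, two-sided). Other marker means had the same 2 lowest frogs. For skin epithelium and cartilage, saline frog 1 and leptin frog 6 read 7.34 and 7.40, against 7.71 to 7.88 elsewhere. For endothelium and pericytes they read 8.46 and 8.54, against 8.58 to 8.78 elsewhere. The brightest *aldh1a2.L* probe set did not share the pattern, with saline frog 3 lowest (10.8). This pattern was noticed in the data, and the part of meningeal or any other tissue in it was not tested.

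**Figure D4:**
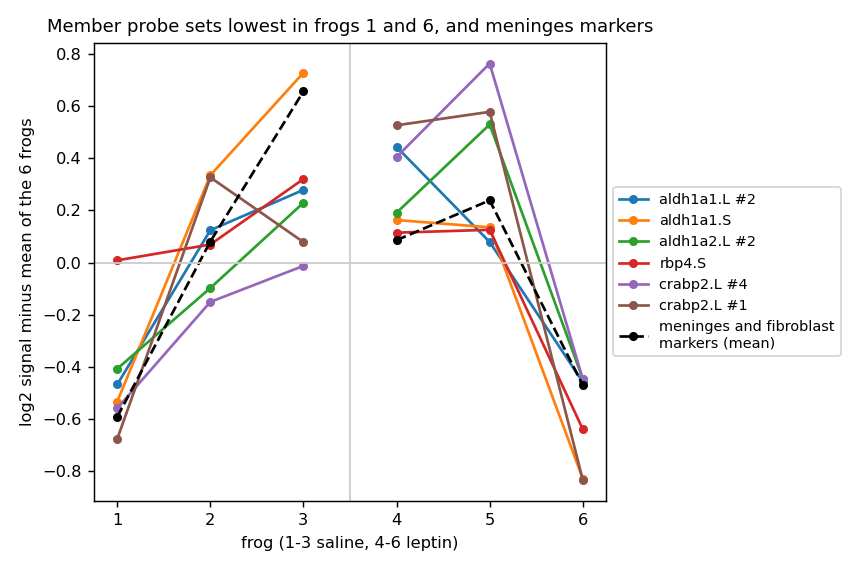
Log2 signal minus the mean of the 6 frogs (vertical axis) in frogs 1 to 3 (saline) and 4 to 6 (leptin), for the 6 member probe sets whose lowest frogs were saline frog 1 and leptin frog 6, with the mean of 11 meninges and fibroblast markers (dashed). Lines join values of 1 probe set within a group and stand for no order, and all 7 curves have their 2 lowest points at frogs 1 and 6.

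Other genes of the pathway were taken from 8 lists with 74 genes, of which 50 were measured, by 78 probe sets. None passed the adjusted threshold (0 higher, 0 lower), 48 had a higher mean in leptin frogs and 30 a lower one, and the median difference was 0.04. Leptin frogs lay wholly above saline frogs in 6 of the 78 and wholly below in 4, beside 5.15% and 6.78% of all probe sets. At an unadjusted limma p under 0.05, 2 of the 78 were higher and 1 was lower, beside 2.03% and 2.68% of all. These counts are near the shares over the whole array.

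Other retinol and retinal redox enzymes numbered 15 measured genes with 16 probe sets, 9 lower and 7 higher (median -0.04). The smallest p belonged to *adh1a.S*, another alcohol dehydrogenase, at 4.04, 4.24 and 4.09 in saline frogs and 3.93, 3.87 and 3.94 in leptin frogs. Its groups did not overlap, but the difference was small (log2 -0.21, SE 0.09, limma adjusted p = 0.906) and the probe set was at percentile 5.82 of mean signal. The gene *rdh5.L*, which encodes the 11-cis-retinol dehydrogenase of the eye, came next (log2 -0.46, SE 0.29).

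Retinoic acid synthesis had 1 further measured gene, *aldh1a3.L*, with 5.11, 4.98 and 4.89 in saline frogs and 5.12, 5.19 and 5.76 in leptin frogs (log2 0.36, SE 0.18, limma adjusted p = 0.906). Saline frog 1 and leptin frog 4 were almost equal, and leptin frog 6 was highest. For clearance, *cyp26c1.S*, a relative of *cyp26a1*, had 3 probe sets, all with a higher mean in leptin frogs. One of these had groups that did not overlap, at 5.63, 5.57 and 5.29 in saline frogs and 5.76, 5.74 and 6.26 in leptin frogs (log2 0.42, SE 0.17, limma adjusted p = 0.906), with leptin frog 6 highest. The others differed by 0.56 (SE 0.46) and 0.08 (SE 0.43).

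Receptor genes other than *rara* differed little. The 7 probe sets of 4 measured genes lay between -0.12 and 0.20. Of the *rarg.S* probe sets, 1 was at 0.20 (SE 0.17), the brightest at -0.12 (SE 0.20) and the dimmest at -0.005 (SE 0.09). The heterodimer partner *rxrb.S* was at 0.04 (SE 0.08). Among 11 measured retinoic acid responsive genes, with 19 probe sets, 14 had a higher mean and 5 a lower one (median 0.08). The homeobox gene *meis2.L* read 7.59, 7.56 and 7.65 in saline frogs and 7.81, 7.66 and 8.03 in leptin frogs (log2 0.23, SE 0.11, limma adjusted p = 0.906), without overlap, and *hoxb4.S* differed by 0.28 (SE 0.14). Of 10 measured aldehyde dehydrogenases outside the retinoid group, with 19 probe sets, 10 probe sets were higher and 9 lower. The proline-pathway enzyme gene *aldh4a1.L* had the smallest p, in 1 of its 4 probe sets, with log2 0.30 (SE 0.08, limma adjusted p = 0.906). Its other 3 probe sets had overlapping groups and log2 differences of 0.46, -0.08 and -0.02, the last 2 being the brightest of the gene. The folate enzyme gene *aldh1l1.L* differed by -0.23 (SE 0.13).

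Genes of the visual cycle, which regenerates the light-sensitive retinoid in the eye, did not pass the adjusted threshold in either direction. Those named by the fixed rule were *rlbp1.L* (retinaldehyde-binding protein, log2 -0.31, SE 0.18), *rbp3.L* (the retinoid carrier between photoreceptors and pigment epithelium, log2 0.69, SE 0.57) and *rpe65.S* (the retinoid isomerase, log2 0.15, SE 0.22). In the storage and cleavage list, *dgat1.L*, the gene of an acyltransferase, was also named (log2 0.06, SE 0.08). In 7 of the 10 probe sets of *rdh5*, *rpe65*, *rlbp1* and *rbp3*, saline frog 1 was lowest and saline frog 3 highest. This order held for 3.59% of all probe sets and for 1 of the 26 members. These genes were gathered from several pathway lists and were no fixed list of their own. Several of the 10 are repeat probe sets of *rlbp1.L* and *rbp3.L* and are no replicates. The order was not seen in *lrat.L*, where leptin frog 6 was lowest (3.67), or in *rdh11.S*, where leptin frog 6 was highest (7.20).

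The visual cycle probe sets that follow, other than *rbp3.L*, were chosen after their values were seen. The *rdh5.S* probe set read 6.20, 7.74 and 9.96 in saline frogs and 7.38, 8.67 and 8.31 in leptin frogs. For *rpe65.L* the values were 8.86, 10.2 and 11.2 in saline frogs and 9.58, 10.6 and 10.4 in leptin frogs. In *rbp3.L*, saline frogs read 4.97, 6.43 and 7.36 and leptin frogs 6.71, 7.28 and 6.84. The same 2 saline frogs thus set the range in each of these. Of 11 retina and pigment cell markers 7 were measured (*rpe65* and *rlbp1* are in this list too), and their mean lay between 6.28 and 7.16 in saline frogs and between 6.74 and 6.90 in leptin frogs. Saline frog 1 was lowest and saline frog 3 highest in this mean, and the same held for other marker means. These were pituitary (7.19 and 12.2), choroid plexus and ependyma (7.90 and 8.56), meninges and fibroblasts (8.62 and 9.87), and skin epithelium and cartilage (7.34 and 7.88). The order is thus not particular to the retina list. Whether eye, pineal or any other tissue took part in these values was not tested.

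**Figure D5:**
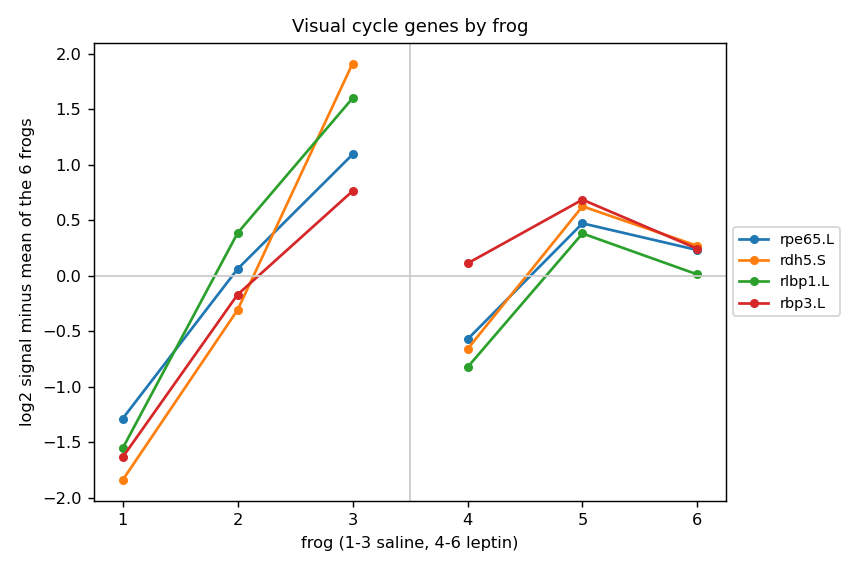
Log2 signal minus the mean of the 6 frogs (vertical axis) in frogs 1 to 3 (saline) and 4 to 6 (leptin), for 1 probe set each of *rpe65.L*, *rdh5.S*, *rlbp1.L* and *rbp3.L*, all but the last chosen after their values were seen; the *rlbp1.L* one is not the brightest of that gene, which has leptin frog 5 lowest. Lines join values of 1 probe set within a group and stand for no order, and saline frog 1 is lowest and saline frog 3 highest in all 4.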

How the data were processed

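Gene expression was measured on 1 array for each of 6 frogs, 3 given saline and 3 given leptin. Values were used as deposited, on a log2 scale. RMA, affy and limma are listed in the submitters' processing notes, with neither a version nor what each was used for. The 96 control probe sets were left out. Symbols came from the array annotation, where 16765 probe sets have no symbol and 279 have several. All 27 member probe sets matched the RefSeq table of Xenopus_laevis_v10.1 by Entrez identifier, and 0 symbols changed.

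Leptin minus saline was fitted over all 32539 probe sets (R 4.3.3, limma 3.58.1, lmFit and eBayes, two-sided), with Benjamini-Hochberg adjustment over all of them and a threshold of 0.05. Intervals are at 95% from the moderated SE. The labels number each array as a separate frog. Precision is limited by having 3 arrays a group. The fitting code was checked on simulated data.

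The members and gene lists were chosen with earlier results of these data known. The text names all member probe sets, up to 2 genes per pathway list with the smallest p, the 5 genes outside the members most like *adh4.L* and the 2 brightest markers of a list that moves with a member. Alternatives were array centring, quantile scaling, trend and robust eBayes, no variance moderation, the brighter 50% of probe sets, the pituitary or muscle marker mean as a covariate, leaving out each frog, and the mean of a gene's probe sets. Leaving out saline frogs 1 and 3 together, and counting tandem copies of markers, were chosen after seeing the data.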

Additional observations from a re-analysis of the deposited data

How the results depend on the processing

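No paired analysis was possible because the frogs are numbered 1 to 6 and the groups share no number. Among the members other than *adh4*, 0 probe sets passed the adjusted threshold under any alternative run. Over all probe sets the count of calls was 0 to 4 when 1 frog was left out, with 4 without saline frog 2, and 0 under every other alternative at probe set level. With the probe sets of a gene averaged, 1 of 9273 genes passed, and no member changed sign. The size for *rbp4* depended on this choice, at -1.36 averaged and -0.27 for its brightest probe set. The *adh4.L* difference was -2.52 to -1.79 when 1 frog was left out, and -1.37 without saline frogs 1 and 3 together, with saline frog 2 the only control. The number of members lower in leptin frogs was 5 of 11 among the brighter 50% of probe sets.

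None of the members whose sign changed had passed a test, and the cause of the changes was not tested. Numbers after a name rank its probe sets by brightness. With arrays centred, *rdh10.S* was 0.013 and the dimmer *cyp26a1.S* 0.0071. After quantile scaling, the dimmer *aldh1a1.L* was -0.024, *rdh10.S* 0.0034 and *crabp2.L* 5 -0.014. With the pituitary covariate, the dimmer *aldh1a1.L* was -0.20, *aldh1a2.L* 2 -0.0083 and *crabp2.L* 1 -0.13. With the muscle covariate, the brighter *aldh1a1.L* was 0.34, *aldh1a2.L* 1 and 3 -0.033 and -0.067, *rdh10.L* 0.091, *rdh10.S* 0.46 and the dimmer *cyp26a1.S* 0.029. Without saline frogs 1 and 3, the dimmer and brighter *aldh1a1.L* were -0.10 and 0.27, *aldh1a2.L* 1, 3 and 5 were -0.040, -0.086 and -0.064, *rdh10.L* and *rdh10.S* were 0.078 and 0.097, the brighter *rbp4.L* was 0.32, *crabp2.L* 1, 2 and 3 were -0.24, -0.041 and -0.020, and the dimmest *rara.L* was 0.011. Leaving out 1 frog gave ranges across 0 for the dimmer and brighter *aldh1a1.L* (-0.18 to 0.28 and -0.39 to 0.26), *aldh1a2.L* 2, 3 and 5 (-0.035 to 0.45, -0.043 to 0.20 and -0.20 to 0.43), *rdh10.L* (-0.090 to 0.068), *rdh10.S* (-0.35 to 0.40), *crabp2.L* 1 and 5 (-0.11 to 0.64 and -0.042 to 0.098), the dimmer *cyp26a1.S* (-0.13 to 0.069) and the dimmest *rara.L* (-0.20 to 0.057). Having 3 frogs a group limits the precision of every value, and no measure of signal over background was used.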
